A study of Mus musculus with 84 samples.

Results

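The interferon-stimulated genes examined here are 41 genes that cells switch on in answer to interferons, measured in astrocytes of mice with experimental autoimmune encephalomyelitis (EAE), an immune-mediated model of multiple sclerosis. Members were taken from a list of interferon-induced genes when they held at least 10 counts in total in the EAE experiment. All 41 listed genes did, among the 23324 genes tested of the 48526 genes listed. The 66 EAE libraries came from female C57BL/6J mice. Those that were immunized were 10 weeks old at that time. Astrocytes were sorted as live CD11B-negative, CD45-negative and ACSA-2-positive cells, which leaves out most leukocytes, and were divided by the surface transporter GLAST. The populations were hindbrain GLASTneg, hindbrain GLASTpos and spinal cord GLASTneg astrocytes. Mice with EAE had been given MOG35-55 in complete Freund's adjuvant with pertussis toxin and were taken at score 1 (E1, limp tail), at score 4 (E4, paralysed hind legs) or in the chronic phase (Ech). Controls (C) were unimmunized mice of the same strain, so adjuvant, toxin and autoimmune disease cannot be told apart in any comparison with them. In the order C, E1, E4 and Ech, hindbrain GLASTneg astrocytes gave 5, 6, 6 and 6 libraries, hindbrain GLASTpos astrocytes 5, 6, 6 and 4, and spinal cord GLASTneg astrocytes 5, 5, 6 and 6. A library could hold RNA of up to 2 mice.

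Interferons are cytokines released on infection and in inflammation. Type I interferons act through a complex with STAT2 and IRF9 that binds the interferon-stimulated response element, and interferon-gamma acts above all through the gamma-activated site. The genes switched on this way restrict viruses and other intracellular microbes, raise antigen processing and feed back on the pathway itself. Astrocytes carry receptors for both kinds of interferon, and an interferon response is a known feature of reactive astrocytes in inflamed nervous tissue. The members fall into regulators of the pathway (5 genes), antiviral effectors and sensors (15), the ISG15 system (3), guanylate-binding proteins (4), immunity-related GTPases (6), an ADP-ribosylation complex (3), the immunoproteasome (2) and 3 others.

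Promoter sequences of the members were searched for the letters these factors are known to bind. RefSeq promoter windows on GRCm38.p6, from 250 bases before to 50 bases after the start, were matched for 34 of the 41 members. The core of the interferon-stimulated response element, searched as GAAA, any 2 bases and GAAA again, was found on either strand in 18 of these 34 genes (52.9%) and in 1079 of 27025 genes with a window of the same length (3.99%). TTCNNNGAA, the core of the gamma-activated site, which reads the same on both strands, was found in 10 members (29.4%) and in 9.55% of all genes. Both motifs occurred in 7 members (20.6%, against 0.614% of all genes) and neither in 13 (38.2%, against 87.1%). Where a window held both, the matches overlapped in 2 cases. A match is a description of letters in the window and not evidence of binding. The stretches below are those of members on which the results turn, written 5′ to 3′ on the plus or minus strand named, with matches to either motif in capitals. A match to the first motif on the opposite strand reads as TTTC, 2 bases and TTTC. Isg15, Ifit3 and Bst2 stand for antiviral genes with several matches, and Irf1 for a member with the second motif alone. Gbp2, Gbp7, Igtp, Irgm1 and Irgm2 are members whose fall from E4 to Ech differed between populations.
Isg15 (chr4:156200855-156200916, minus strand): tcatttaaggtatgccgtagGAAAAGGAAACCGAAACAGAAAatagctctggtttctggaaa
Ifit3 (chr19:34583353-34583436, plus strand): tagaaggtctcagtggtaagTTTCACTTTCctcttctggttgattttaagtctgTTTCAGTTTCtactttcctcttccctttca
Bst2 (chr8:71537567-71537628, minus strand): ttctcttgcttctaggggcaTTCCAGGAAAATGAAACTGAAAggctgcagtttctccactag
Irf1 (chr11:53769904-53769952, plus strand): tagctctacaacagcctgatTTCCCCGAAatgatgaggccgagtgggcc
Gbp2 (chr3:142620584-142620633, plus strand): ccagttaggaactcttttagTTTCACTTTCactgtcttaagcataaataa
Gbp7 (chr3:142530210-142530312, plus strand): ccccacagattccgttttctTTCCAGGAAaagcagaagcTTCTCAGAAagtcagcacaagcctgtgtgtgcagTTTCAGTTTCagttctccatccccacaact
Igtp (chr11:58199491-58199551, plus strand): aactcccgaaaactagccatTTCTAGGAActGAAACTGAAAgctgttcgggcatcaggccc
Irgm1 (chr11:48871415-48871470, minus strand): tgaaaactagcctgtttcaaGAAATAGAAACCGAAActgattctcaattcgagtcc
Irgm2 (chr11:58214882-58214942, plus strand): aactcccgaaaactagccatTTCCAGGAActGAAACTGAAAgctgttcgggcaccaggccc

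Igtp and Irgm2 lie side by side on chromosome 11, and their stretches are nearly the same letter for letter. The annotation also gives them shared exons on one strand, so reads of one could be counted for the other or discarded. In Isg15, Bst2 and Irgm1 matches run into each other. The window of Ifi47, another gene whose fall differed, held neither motif. Iigp1 was among the 7 members with no matched window.

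Each library held between 1313682 and 4895220 counts (median 2936680). Levels are given as CPM, which are counts divided by the library total after TMM scaling and brought to a common size, and 3 counts corresponded to between 0.634 and 2.44 CPM. Libraries were made from transcript 3′ ends, so CPM values of different genes depend little on transcript length, but levels are compared only between libraries of one gene. For spinal cord E1 replicate 1 the title names spinal cord and another label names hindbrain. The title was used. Its Hox genes read like those of other spinal cord libraries, and the number of members called at E1 is 37 with and without it. Populations are named after the sort. Astrocyte markers were present throughout, but in spinal cord they were lower at E4 and Ech than in all controls. Their summed level there (10 genes) was between 13071 and 18366 CPM in controls and between 4317 and 22252 at E1. It was between 2430 and 3930 at E4 and between 3501 and 5976 at Ech. Oligodendrocyte markers there were between 14358 and 41875 CPM in controls, between 26912 and 62071 at E1, between 30361 and 77684 at E4 and between 25393 and 41609 at Ech. Mitochondrial genes took between 11.4% and 13.6% of counts in spinal cord controls, between 8.698% and 15.98% at E1, between 6.008% and 8.073% at E4 and between 6.045% and 6.998% at Ech. In such bulk samples fewer cells of a type and less RNA per cell cannot be told apart, and the part of these shifts in the member levels was not tested. Library names also carry a running sheet number, which is not explained. All hindbrain GLASTneg libraries have numbers up to 56 and all hindbrain GLASTpos libraries and spinal cord controls have higher ones, so these numbers cannot be told apart from the populations. Of the spinal cord E4 libraries only replicate 3 has a number over 56.

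Members were higher in libraries of all 3 populations at the first signs of disease. A gene was called when the quasi-likelihood test of edgeR gave an adjusted p under 0.05 over all genes and the log2 fold change was above 1 or below -1. Log2 fold changes are given ± their standard error. The members were chosen with earlier results of these data known, so counts of members called are a description and no independent evidence. At E1, 35 of 41 members rose in hindbrain GLASTneg astrocytes, against 0.635% of all genes tested. In hindbrain GLASTpos astrocytes 32 rose (1.27% of all genes) and in spinal cord GLASTneg astrocytes 37 rose (2.5%). At E4 the counts were 35 (0.707% of all genes), 34 (1.66%) and 38 (6.8%). No member was lower in these 6 comparisons, in which 0.00857%, 0.214% and 3.68% of all genes were at E1 and 0.0214%, 0.369% and 11.1% at E4. Among spinal cord libraries with sheet numbers over 56 alone, 35 members were called at E1, 25 at E4 and 30 at Ech. The share of all genes called among these libraries alone is not given, so these counts cannot be set against it. The E4 count there rests on 1 library, whose spread is assumed to be like that of the other groups. It does not separate the rise at E4 from the sheet number. Each hindbrain population lies on one side of that number.

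The median log2 fold change over the 41 members was 4.00, 3.48 and 4.01 at E1 in the order above and 4.33, 3.84 and 4.70 at E4, while the median over all genes was 0 each time. With the 2 or 3 members whose controls were all at 0 set to their lower bound, these medians became 3.89, 3.48 and 3.98 at E1 and 4.29, 3.58 and 4.51 at E4. The medians were thus higher at E4 than at E1 in each population, but few members, and few of all genes, were called higher between these stages. By edgeR, 0 members rose in either hindbrain population, where 0% and 0.00857% of all genes did, and DESeq2 also called 0. At an unadjusted p under 0.05, 3 and 6 members were higher (7.32% and 14.6% of members), beside 3.01% and 8.13% of all genes. In spinal cord 1 member rose from E1 to E4 (0.832% of all genes). It was Zbp1, a sensor of Z-form nucleic acid, at 8.96, 4.10, 38.3, 17.8 and 43.6 CPM at E1 and between 78.5 and 188 (median 103) at E4 (log2 fold change 2.36 ± 0.74, edgeR adjusted p = 0.0381). All E4 libraries were above all E1 libraries. The call was lost with a term for sheet numbers over 56 in the fit, and without any one of E1 replicates 1, 2 and 4 and E4 replicates 1 and 2.

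**Figure D1:**
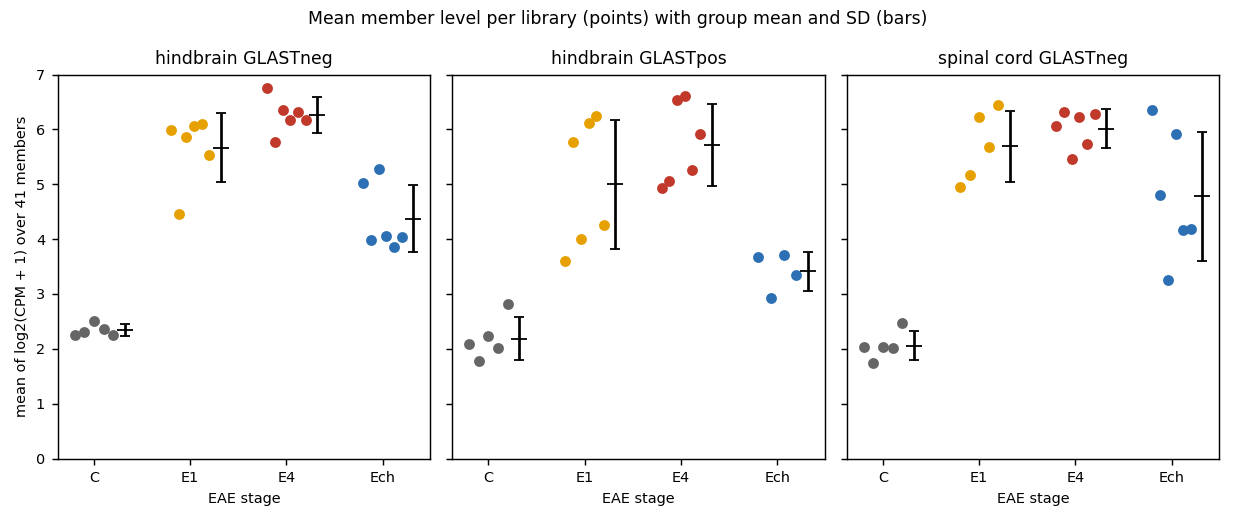
Mean of log2(CPM + 1) over the 41 members in each library (y axis), by stage (x axis) and population (panels), with bars for mean ± SD. Control means are lowest in every panel, hindbrain GLASTpos E1 libraries spread widely, and spinal cord Ech libraries span the space between controls and E4.

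The plot of the mean level per library shows where libraries of one group disagreed. The summed level of the members was between 336 and 424 CPM in hindbrain GLASTneg controls, between 1606 and 5967 at E1, between 5381 and 9505 at E4 and between 1219 and 2948 at Ech. Hindbrain GLASTpos astrocytes went from between 243 and 613 CPM in controls to between 857 and 7309 at E1, between 2313 and 11328 at E4 and between 540.1 and 965 at Ech. Spinal cord libraries held between 248 and 416 CPM in controls, between 2529 and 7916 at E1, between 4108 and 7627 at E4 and between 654 and 6542 at Ech. Sums at E1 and E4 lay above all controls in each population, and only in hindbrain GLASTpos astrocytes did Ech sums reach into the range of controls.

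**Figure D2:**
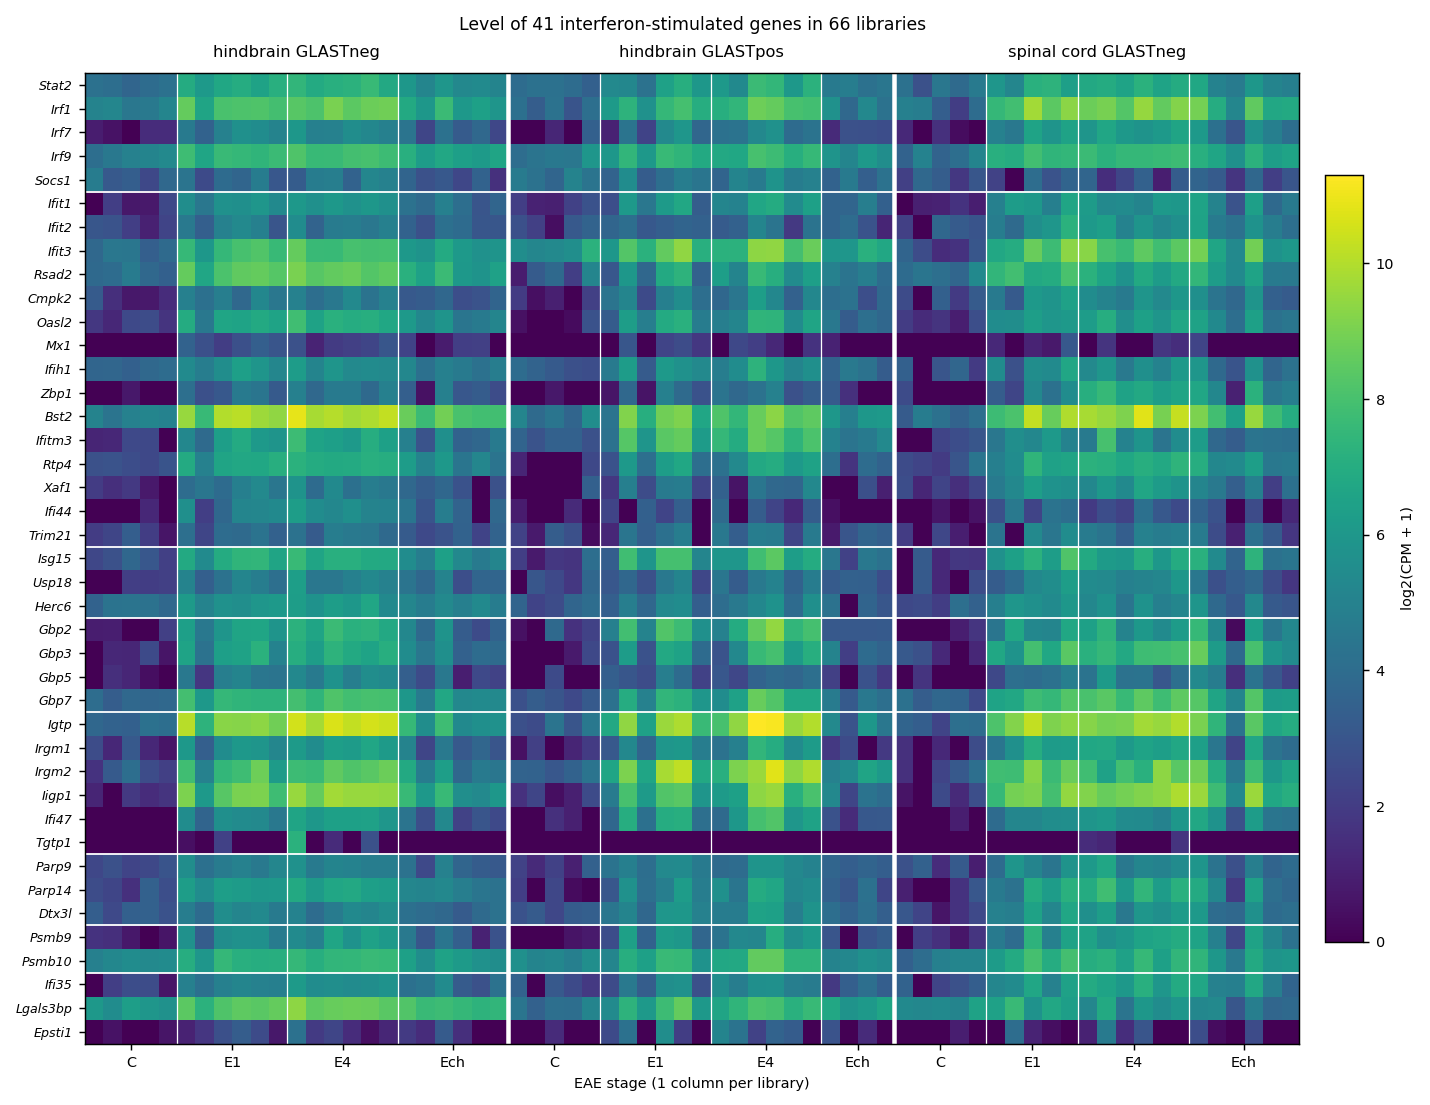
Level of each of the 41 members (rows, grouped by role) in each of the 66 libraries (columns, grouped by population and stage), as log2(CPM + 1). Most rows turn from dark in C to bright at E1 and E4 in each population, and at Ech they are dimmest in hindbrain GLASTpos astrocytes.

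Of the 5 regulators, which carry or damp the interferon signal, 4 were called higher at E4 in each population. At Ech 2 remained called in hindbrain GLASTneg astrocytes (Irf7 and Irf9), 0 in hindbrain GLASTpos and 4 in spinal cord. Irf1 encodes a transcription factor induced above all by interferon-gamma. Irf1 in hindbrain GLASTneg astrocytes stood at 32.3, 34.96, 21.3, 22.5 and 34.9 CPM in the 5 controls, between 96.9 and 391.8 (median 277) at E1, between 283 and 518 (median 394) at E4 and between 59.3 and 207 (median 74.7) at Ech. Irf1 in the hindbrain GLASTpos libraries measured 17.2, 9.10, 17.95, 6.60 and 16.4 CPM in controls, then between 52.2 and 251 (median 145) at E1, between 134 and 452 (median 243) at E4 and 50.9, 13.2, 37.6 and 17.9 at Ech. For Irf1 in spinal cord GLASTneg astrocytes the control values were 29.7, 26.9, 9.46, 3.14 and 14.97 CPM, those at E1 181, 234, 859.6, 353 and 653, those at E4 between 311 and 735 (median 474) and those at Ech between 35.95 and 496 (median 122). Every E1 and E4 library lay above all controls of its population, and in hindbrain GLASTpos astrocytes 2 of the 4 Ech libraries were back in the control range. The log2 fold change at E4 was 3.76 ± 0.49, 4.34 ± 0.51 and 4.89 ± 0.52 in hindbrain GLASTneg, hindbrain GLASTpos and spinal cord astrocytes (edgeR adjusted p = 7.68e-08, 3.17e-09 and 3.49e-12). At Ech it was 1.76 ± 0.45, 1.15 ± 0.50 and 3.65 ± 0.49 (adjusted p = 0.0878, 0.210 and 1.10e-08 by edgeR), so that the call was kept in spinal cord alone.

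Irf9 encodes the DNA-binding partner of STAT2. Irf9 in hindbrain GLASTneg astrocytes stood at 15.7, 22.1, 29.97, 32.9 and 39.3 CPM in the 5 controls, between 98.5 and 219.6 (median 192) at E1, between 194 and 292 (median 228) at E4 and between 70.6 and 139 (median 88.9) at Ech. Irf9 in the hindbrain GLASTpos libraries measured 15.5, 19.3, 21.9, 21.1 and 59.4 CPM in controls, then between 62.6 and 193 (median 141) at E1, between 105 and 254 (median 160.4) at E4 and 55.9, 34.5, 66.5 and 46.2 at Ech. For Irf9 in spinal cord GLASTneg astrocytes the control values were 10.9, 30.8, 11.2, 15.7 and 33.2 CPM, those at E1 141, 125, 233, 167 and 178, those at E4 between 148 and 214 (median 188) and those at Ech between 50.3 and 153 (median 95.9). Control replicate 5 of hindbrain GLASTpos stood apart from the other 4 controls. All E1 and E4 libraries were above all controls, as were all Ech libraries of the GLASTneg populations, whereas 3 of 4 hindbrain GLASTpos Ech libraries overlapped controls. Log2 fold changes at Ech were 1.77 ± 0.31, 0.87 ± 0.33 and 2.33 ± 0.32 (edgeR adjusted p = 0.000680, 0.158 and 1.62e-08). The Irf9 gene shares exon sequence on its strand with Rnf31. Stat2 rose to a median of 145, 111 and 117 CPM at E4 from control medians of 16.1, 14.7 and 17.9. Irf7, the factor that amplifies type I interferon, had control medians of 0.850, 0 and 0.314 CPM and E4 medians of 33.7, 18.6 and 65.02. Socs1, which inhibits JAK kinases, was the regulator without a call. Its log2 fold change at E4 was 0.93 ± 0.56, 0.48 ± 0.54 and -0.20 ± 0.57, and its E4 libraries overlapped controls in each population.

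The 15 antiviral effectors and sensors rose broadly. At E4, 12, 12 and 15 were called higher in hindbrain GLASTneg, hindbrain GLASTpos and spinal cord astrocytes, and at Ech 8, 4 and 14. Bst2, or tetherin, holds budding virus at the cell surface. Bst2 in hindbrain GLASTneg astrocytes stood at 32.7, 19.3, 29.97, 34.3 and 31.5 CPM in the 5 controls, between 195 and 1125 (median 774) at E1, between 863 and 1904 (median 1008) at E4 and between 205 and 477 (median 251) at Ech. Bst2 in the hindbrain GLASTpos libraries measured 34.7, 14.02, 19.9, 11.9 and 44.9 CPM in controls, then between 19.2 and 573 (median 295) at E1, between 179 and 638 (median 329) at E4 and 62.4, 28.1, 61.9 and 68.7 at Ech. For Bst2 in spinal cord GLASTneg astrocytes the control values were 8.43, 25.6, 17.5, 10.99 and 16.4 CPM, those at E1 214, 275, 1240, 413 and 989, those at E4 between 512 and 1758 (median 826) and those at Ech between 82.5 and 751 (median 226). In hindbrain GLASTpos astrocytes E1 replicate 1 and Ech replicate 2 lay in the control range. All other EAE libraries were above all controls. At E4 the log2 fold changes were 5.29 ± 0.58, 3.84 ± 0.54 and 5.91 ± 0.60 (edgeR adjusted p = 4.82e-10, 5.39e-07 and 5.94e-13), and at Ech 3.37 ± 0.53, 1.14 ± 0.53 and 4.34 ± 0.56 (adjusted p = 0.000133, 0.230 and 2.53e-09).

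Ifit3 belongs to a family that binds viral RNA and stops its translation. Ifit3 in hindbrain GLASTneg astrocytes stood at 13.2, 21.6, 20.7, 9.70 and 14.1 CPM in the 5 controls, between 62.7 and 298 (median 194) at E1, between 196 and 398 (median 248) at E4 and between 50.9 and 119 (median 60.5) at Ech. Ifit3 in the hindbrain GLASTpos libraries measured 44.96, 35.3, 38.8, 46.97 and 151 CPM in controls, then between 62.9 and 677 (median 226) at E1, between 149.9 and 686 (median 330.2) at E4 and 58.6, 59.9, 144 and 107 at Ech. For Ifit3 in spinal cord GLASTneg astrocytes the control values were 11.4, 5.25, 1.72, 2.20 and 7.02 CPM, those at E1 109, 127, 421, 215 and 642, those at E4 between 202 and 620 (median 306) and those at Ech between 39.3 and 486 (median 80.7). Its controls were highest in hindbrain GLASTpos astrocytes, where replicate 5 stood apart from the other 4 and exceeded the lowest E4 library, and no Ech library there was above all controls. In the GLASTneg populations every EAE library exceeded every control. Log2 fold changes were 4.03 ± 0.59, 2.60 ± 0.53 and 6.01 ± 0.66 at E4 (edgeR adjusted p = 1.38e-06, 0.00111 and 9.58e-12) and 2.13 ± 0.55, 0.54 ± 0.54 and 5.26 ± 0.64 at Ech (adjusted p = 0.0878, 0.723 and 4.49e-10). Of 50-base windows in the last 500 bases of its transcript, 14.9% are also present in Ifit3b, so part of its reads may be split between both genes.

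Rsad2, which makes an antiviral nucleotide, had E4 medians of 376, 81.2 and 103 CPM from control medians of 13.6, 8.34 and 16.6. Zbp1 had 1 count over the hindbrain GLASTneg controls, and its E4 mean was 236 times as high (95% counting interval 42.4 to 9330). Mx1 was at 0 in all controls. Its E1 level was at least 24.9-fold, 17-fold and 10.1-fold higher than 3 counts over the control group in the order above, but single libraries at E4 stayed at or below 7.13 CPM. Ifi44 was at 0.383, 0, 0 and 0 CPM at Ech in hindbrain GLASTpos astrocytes, against between 0 and 11.3 (median 3.18) in spinal cord. Ifih1, a sensor of long double-stranded RNA, and Trim21, a cytosolic antibody receptor, were called in spinal cord at every stage, where their log2 fold changes at E4 were 2.79 ± 0.54 and 3.75 ± 0.85. Trim21 was not called in hindbrain at any stage.

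The ISG15 system attaches a small ubiquitin-like protein to other proteins. Of its 3 members, 3, 2 and 3 were called higher at E4, and 1 (Usp18), 0 and 2 at Ech. Isg15 encodes the modifier. Isg15 in hindbrain GLASTneg astrocytes stood at 4.25, 5.98, 12.7, 7.27 and 3.37 CPM in the 5 controls, between 41.5 and 173 (median 121) at E1, between 94.8 and 197 (median 127) at E4 and between 23.6 and 85.6 (median 35.7) at Ech. Isg15 in the hindbrain GLASTpos libraries measured 3.27, 0.758, 2.61, 2.29 and 15.7 CPM in controls, then between 9.31 and 249 (median 141) at E1, between 59.7 and 346 (median 99.4) at E4 and 21.1, 3.59, 22 and 17.7 at Ech. For Isg15 in spinal cord GLASTneg astrocytes the control values were 0, 8.53, 1.43, 2.51 and 2.34 CPM, those at E1 51.03, 85.2, 153, 77.1 and 292, those at E4 between 62.6 and 134 (median 93.04) and those at Ech between 11.4 and 158 (median 30.5). The lowest libraries were hindbrain GLASTpos E1 replicate 1 and Ech replicate 2, both within the control range, and no other EAE library overlapped controls. The log2 fold changes of Isg15 at Ech were 2.66 ± 0.67, 1.63 ± 0.69 and 4.37 ± 0.72 (edgeR adjusted p = 0.0669, 0.206 and 1.70e-06).

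Herc6, the ligase for ISG15 in mice, moved less. Herc6 in hindbrain GLASTneg astrocytes stood at 10.6, 18.9, 19.3, 18.01 and 12.9 CPM in the 5 controls, between 31.8 and 70.7 (median 56.03) at E1, between 40.6 and 101 (median 69.1) at E4 and between 26.02 and 39.9 (median 31.9) at Ech. Herc6 in the hindbrain GLASTpos libraries measured 11.4, 3.79, 5.22, 11.9 and 15.2 CPM in controls, then between 9.45 and 43.98 (median 20.2) at E1, between 14.3 and 52.4 (median 29.7) at E4 and 18, 0, 11.5 and 7.12 at Ech. For Herc6 in spinal cord GLASTneg astrocytes the control values were 4.46, 4.92, 3.15, 16.3 and 10.3 CPM, those at E1 28.1, 59.7, 50.6, 41.8 and 62.4, those at E4 between 19.98 and 54.1 (median 35.9) and those at Ech between 6.85 and 58.8 (median 10.9). Hindbrain GLASTpos libraries overlapped controls at every EAE stage. In spinal cord all E4 libraries but only Ech replicates 1 and 4 exceeded all controls. Its log2 fold changes at E4 were 2.10 ± 0.50, 1.71 ± 0.49 and 2.26 ± 0.51 (edgeR adjusted p = 0.0137, 0.0454 and 0.000421). Usp18, which removes ISG15 and dampens the type I receptor, was called at E4 in the GLASTneg populations, at 4.23 ± 0.74 and 3.74 ± 0.69 on the log2 scale, and measured 1.86 ± 0.63 in hindbrain GLASTpos astrocytes without a call.

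Guanylate-binding proteins are large GTPases that coat and break the vacuoles of microbes. All 4 rose at E1 and E4 in every population. At Ech 3 were called in hindbrain GLASTneg astrocytes (Gbp2, Gbp3 and Gbp7), 1 in hindbrain GLASTpos (Gbp3) and 4 in spinal cord. Gbp7 in hindbrain GLASTneg astrocytes stood at 15.3, 9.20, 13.3, 12.5 and 12.9 CPM in the 5 controls, between 64.3 and 245 (median 163) at E1, between 169 and 291 (median 243) at E4 and between 25.3 and 110.2 (median 39.97) at Ech. Gbp7 in the hindbrain GLASTpos libraries measured 5.72, 9.10, 6.85, 4.57 and 8.10 CPM in controls, then between 17.8 and 174 (median 92.6) at E1, between 43.6 and 408 (median 109) at E4 and 25.3, 8.28, 22.2 and 16.7 at Ech. For Gbp7 in spinal cord GLASTneg astrocytes the control values were 17.9, 9.19, 12.6, 11.6 and 4.68 CPM, those at E1 91.9, 109, 218, 182 and 306, those at E4 between 198 and 365 (median 302) and those at Ech between 33.8 and 314 (median 86.3). All E1 and E4 values of Gbp7 were above all controls. At Ech the highest 2 libraries were replicates 1 and 3 in hindbrain GLASTneg astrocytes, and replicates 1 and 4 in spinal cord, where both were inside the range of E4. Gbp7 changed by 4.24 ± 0.52, 4.67 ± 0.53 and 4.70 ± 0.53 at E4 (edgeR adjusted p = 1.33e-08, 1.81e-09 and 2.07e-11) and by 2.05 ± 0.48, 1.39 ± 0.53 and 3.74 ± 0.51 at Ech (adjusted p = 0.0371, 0.164 and 1.16e-08).

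Gbp3 in hindbrain GLASTneg astrocytes stood at 0, 1.38, 1.33, 4.85 and 0.562 CPM in the 5 controls, between 17.9 and 146 (median 86.1) at E1, between 76.4 and 158 (median 124) at E4 and between 10.3 and 48.9 (median 18.3) at Ech. Gbp3 in the hindbrain GLASTpos libraries measured 0, 0, 0, 0.762 and 4.42 CPM in controls, then between 6.15 and 111 (median 44.6) at E1, between 6.53 and 249.6 (median 104) at E4 and 32.2, 3.31, 14.4 and 11.1 at Ech. For Gbp3 in spinal cord GLASTneg astrocytes the control values were 7.93, 5.91, 1.43, 0 and 1.40 CPM, those at E1 105, 55.2, 242, 107 and 337, those at E4 between 111 and 259 (median 200.3) and those at Ech between 13.7 and 402 (median 66.5). Again all E1 and E4 libraries were above all controls for Gbp3, and only Ech replicate 2 of hindbrain GLASTpos astrocytes was not. The log2 fold changes of Gbp3 at Ech were 3.82 ± 0.90, 3.58 ± 0.93 and 5.46 ± 0.85 (edgeR adjusted p = 0.0353, 0.0273 and 4.85e-07). Gbp2 at Ech measured 8.04, 8, 8.02 and 8.10 CPM in hindbrain GLASTpos astrocytes, between 4.94 and 55.3 (median 12.2) in hindbrain GLASTneg and between 0.211 and 187 (median 36.9) in spinal cord. Gbp5, which supports inflammasome assembly, had E4 medians of 39.4, 11.7 and 18.5 CPM.

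Immunity-related GTPases act on vacuoles of intracellular parasites and respond above all to interferon-gamma. Of 6 members, 5 rose at E4 in every population, and at Ech 3 (Igtp, Iigp1 and Ifi47), 1 (Iigp1) and 5 were called. Igtp encodes Irgm3, a regulatory member of the family. Igtp in hindbrain GLASTneg astrocytes stood at 12.8, 10.6, 9.99, 17.7 and 15.7 CPM in the 5 controls, between 157 and 1074 (median 615) at E1, between 874 and 1596 (median 1396) at E4 and between 39.9 and 223 (median 50.5) at Ech. Igtp in the hindbrain GLASTpos libraries measured 5.72, 4.93, 19.3, 6.86 and 22.3 CPM in controls, then between 88.9 and 948 (median 444) at E1, between 254 and 2524 (median 885) at E4 and 38.7, 6.35, 61.7 and 21.6 at Ech. For Igtp in spinal cord GLASTneg astrocytes the control values were 11.4, 9.51, 4.01, 16.6 and 15.4 CPM, those at E1 286, 582, 1227, 559 and 669.7, those at E4 between 497 and 1014 (median 681) and those at Ech between 18.6 and 528 (median 147). No E1 or E4 library overlapped controls. At Ech the libraries of hindbrain GLASTpos replicates 2 and 4 did, and spinal cord replicate 1 alone reached the range of E4. Log2 fold changes of Igtp were 6.63 ± 0.70, 6.71 ± 0.70 and 5.96 ± 0.68 at E4 (edgeR adjusted p = 2.07e-10, 2.19e-10 and 4.35e-11) and 2.88 ± 0.60, 1.42 ± 0.62 and 4.23 ± 0.63 at Ech (adjusted p = 0.0124, 0.211 and 1.88e-07).

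Iigp1, an effector of the family, had the largest E4 change in the GLASTneg populations among members with counts in controls. Iigp1 in hindbrain GLASTneg astrocytes stood at 1.28, 0, 2.66, 1.73 and 2.25 CPM in the 5 controls, between 67.6 and 544 (median 428) at E1, between 396 and 843 (median 747) at E4 and between 38.7 and 197 (median 62.95) at Ech. Iigp1 in the hindbrain GLASTpos libraries measured 2.04, 4.17, 0.326, 1.02 and 4.91 CPM in controls, then between 25.4 and 336 (median 163) at E1, between 69.7 and 780.4 (median 203) at E4 and 37.9, 4.14, 18.8 and 14.7 at Ech. For Iigp1 in spinal cord GLASTneg astrocytes the control values were 0.496, 0, 4.87, 1.57 and 5.62 CPM, those at E1 191, 489.5, 547, 239 and 704, those at E4 between 412 and 949.9 (median 571) and those at Ech between 37.2 and 777 (median 174). All EAE libraries other than hindbrain GLASTpos Ech replicate 2 were above all controls. Log2 fold changes of Iigp1 were 8.82 ± 0.91, 7.03 ± 0.81 and 7.91 ± 0.84 at E4 and 6.02 ± 0.85, 2.87 ± 0.78 and 7.05 ± 0.82 at Ech (edgeR adjusted p at Ech = 1.09e-05, 0.0370 and 1.14e-10).

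Ifi47 was at 0 in all hindbrain GLASTneg controls and reached between 61.1 and 96.96 (median 85.6) CPM at E4, at least 285-fold higher than 3 counts over the control group. In spinal cord its 3 control counts compare with between 5.92 and 107 (median 36.8) CPM at Ech, a ratio of 215 (95% counting interval 73.5 to 1040). Tgtp1 was called in no comparison. It was above 0 only in hindbrain GLASTneg E1 and E4 and spinal cord E4 libraries, with a highest value of 147 CPM. All 50-base windows of its 3′ end are also in Tgtp2, so its reads cannot be assigned.

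The ADP-ribosylation complex pairs the ligase Dtx3l with Parp9, and Parp14 modifies proteins of the interferon pathway. All 3 members rose at E4 in each population, while at Ech 0, 0 and 3 were called. Parp14 in hindbrain GLASTneg astrocytes stood at 5.10, 4.14, 1.998, 10.4 and 5.62 CPM in the 5 controls, between 44.8 and 79.4 (median 67.9) at E1, between 70.02 and 114 (median 92.5) at E4 and between 18.1 and 37.96 (median 30.7) at Ech. Parp14 in the hindbrain GLASTpos libraries measured 3.27, 0, 4.24, 0.254 and 0 CPM in controls, then between 7.34 and 75.8 (median 27.2) at E1, between 19.9 and 123 (median 46.96) at E4 and 10.3, 7.17, 17.7 and 4.17 at Ech. For Parp14 in spinal cord GLASTneg astrocytes the control values were 0.992, 0, 0, 2.20 and 7.49 CPM, those at E1 24.1, 18.2, 122, 75.4 and 145, those at E4 between 64.6 and 225 (median 134) and those at Ech between 2.96 and 121 (median 26.3). Each E1 and E4 value of Parp14 exceeded all controls. At Ech only hindbrain GLASTpos replicate 4 and spinal cord replicate 3 did not. Its log2 fold changes at Ech were 2.34 ± 0.65, 2.74 ± 0.78 and 4.54 ± 0.74 (edgeR adjusted p = 0.173, 0.0544 and 1.27e-06).

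Dtx3l in hindbrain GLASTneg astrocytes stood at 9.35, 4.60, 9.99, 10.4 and 6.18 CPM in the 5 controls, between 14.7 and 44.9 (median 30.6) at E1, between 14.8 and 45.5 (median 33.1) at E4 and between 8.45 and 18.4 (median 14.4) at Ech. Dtx3l in the hindbrain GLASTpos libraries measured 6.13, 8.34, 4.24, 8.63 and 9.57 CPM in controls, then between 12.6 and 61.3 (median 32.2) at E1, between 25.9 and 90.5 (median 41.7) at E4 and 15.7, 10.8, 16.3 and 9.82 at Ech. For Dtx3l in spinal cord GLASTneg astrocytes the control values were 7.44, 3.94, 0.573, 2.20 and 4.68 CPM, those at E1 30.6, 27.4, 89.7, 35.97 and 103, those at E4 between 22.1 and 76.8 (median 54.8) and those at Ech between 13.1 and 66.6 (median 15.9). E1 and E4 libraries of Dtx3l were separate from controls in all populations, and in hindbrain GLASTpos and spinal cord astrocytes so were all Ech libraries. Dtx3l changed by 1.97 ± 0.45, 2.80 ± 0.45 and 3.92 ± 0.50 at E4 (edgeR adjusted p = 0.00916, 1.79e-05 and 1.39e-09). Dtx3l and Parp9 lie on opposite strands with overlapping exons, and whether reads were counted by strand is not given in the sources used here.

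The immunoproteasome cuts peptides for presentation on MHC class I. Both subunits rose at E1 and E4 in all populations, and at Ech 0, 1 (Psmb9) and 2 were called. Psmb10 in hindbrain GLASTneg astrocytes stood at 29.3, 36.8, 43.96, 38.8 and 43.3 CPM in the 5 controls, between 61.1 and 185 (median 134) at E1, between 134 and 199 (median 181) at E4 and between 45.1 and 90.04 (median 60.8) at Ech. Psmb10 in the hindbrain GLASTpos libraries measured 49.5, 33.7, 36.2, 28.4 and 47.1 CPM in controls, then between 33.9 and 202 (median 111) at E1, between 110.1 and 388 (median 163) at E4 and 32.2, 36.7, 49.5 and 43.5 at Ech. For Psmb10 in spinal cord GLASTneg astrocytes the control values were 9.92, 15.4, 28.95, 33.9 and 34.6 CPM, those at E1 73.4, 119, 253, 126 and 242, those at E4 between 84.2 and 188 (median 139.6) and those at Ech between 22.4 and 166 (median 61.4). Psmb10 was counted in every control. Its hindbrain GLASTpos Ech libraries were in the control range apart from replicate 3. At E4 it changed by 2.20 ± 0.38, 2.49 ± 0.38 and 2.45 ± 0.38 and at Ech by 0.75 ± 0.37, 0.06 ± 0.40 and 1.71 ± 0.37 on the log2 scale (edgeR adjusted p at Ech = 0.653, 1 and 0.000340).

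Psmb9 in hindbrain GLASTneg astrocytes stood at 2.13, 1.84, 0.666, 0 and 0.562 CPM in the 5 controls, between 8.95 and 51.9 (median 47.6) at E1, between 29.6 and 97.7 (median 59.8) at E4 and between 1.14 and 22.6 (median 8.51) at Ech. Psmb9 in the hindbrain GLASTpos libraries measured 0, 0, 0, 0.508 and 0.736 CPM in controls, then between 5.36 and 85.6 (median 37.01) at E1, between 18.9 and 129.5 (median 42.8) at E4 and 6.89, 0, 6.65 and 9.08 at Ech. For Psmb9 in spinal cord GLASTneg astrocytes the control values were 0, 3.28, 2.01, 0.628 and 2.34 CPM, those at E1 24.1, 15.04, 155, 29.1 and 89.4, those at E4 between 49.4 and 125 (median 92.2) and those at Ech between 4.23 and 93.6 (median 31.9). Psmb9 was at or near 0 in all controls. At Ech hindbrain GLASTpos replicate 2 was at 0 and the other 3 libraries were above all controls. The log2 fold changes at Ech were 3.37 ± 0.86, 4.06 ± 1.03 and 4.68 ± 0.77 (edgeR adjusted p = 0.0809, 0.0222 and 1.83e-06). Psmb9 shares sequence on the opposite strand with Tap1.

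Of the other 3 members, 2 were called higher at E4 in each population and 1 (Lgals3bp), 1 (Lgals3bp) and 1 (Ifi35) at Ech. Lgals3bp encodes a secreted glycoprotein that binds galectins. Lgals3bp in hindbrain GLASTneg astrocytes stood at 63.7, 44.6, 79.3, 59.6 and 52.3 CPM in the 5 controls, between 155 and 397 (median 346) at E1, between 337 and 659.9 (median 414) at E4 and between 158 and 296 (median 192) at Ech. Lgals3bp in the hindbrain GLASTpos libraries measured 20.03, 10.2, 16.6, 15.99 and 33.6 CPM in controls, then between 41.5 and 396 (median 111) at E1, between 96.5 and 274 (median 182) at E4 and 107, 54.9, 65.5 and 98.7 at Ech. For Lgals3bp in spinal cord GLASTneg astrocytes the control values were 39.7, 37.1, 40.1, 33.3 and 88.9 CPM, those at E1 88.1, 198, 53.3, 108 and 79.6, those at E4 between 19.2 and 115 (median 51.7) and those at Ech between 7.19 and 39.1 (median 20.7). In hindbrain every EAE library lay above all controls of its population. In spinal cord E4 libraries overlapped controls on both sides, and 4 of 6 Ech libraries were below all controls. The log2 fold changes were 2.86 ± 0.41, 3.27 ± 0.42 and 0.23 ± 0.38 at E4 (edgeR adjusted p = 1.01e-06, 6.71e-08 and 0.773) and 1.77 ± 0.39, 2.07 ± 0.43 and -1.07 ± 0.39 at Ech (adjusted p = 0.0219, 0.00325 and 0.0408). It was the only member called lower than controls at Ech in any population, in spinal cord, where 9.57% of all genes were, against 0.00429% and 0.0986% in hindbrain GLASTneg and GLASTpos astrocytes.

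Ifi35 in hindbrain GLASTneg astrocytes stood at 0, 3.22, 5.33, 5.19 and 0.562 CPM in the 5 controls, between 17.1 and 34.03 (median 28.9) at E1, between 42.2 and 70.5 (median 46.6) at E4 and between 6.08 and 42.4 (median 17.4) at Ech. Ifi35 in the hindbrain GLASTpos libraries measured 10.6, 0, 7.83, 4.82 and 2.70 CPM in controls, then between 5.08 and 51.04 (median 15.9) at E1, between 24.98 and 50.8 (median 36.7) at E4 and 2.68, 9.66, 16.3 and 9.33 at Ech. For Ifi35 in spinal cord GLASTneg astrocytes the control values were 10.9, 0, 4.01, 5.97 and 9.36 CPM, those at E1 35.8, 43.3, 102, 30.5 and 88.6, those at E4 between 61.2 and 140.4 (median 106) and those at Ech between 11.5 and 107 (median 29.2). Ifi35, a leucine-zipper protein, was above all controls in all GLASTneg EAE libraries and in E4 libraries of hindbrain GLASTpos astrocytes. Its log2 fold changes were 4.12 ± 0.67, 2.85 ± 0.60 and 4.08 ± 0.63 at E4 (edgeR adjusted p = 1.95e-05, 0.00172 and 2.83e-07). Epsti1 had E4 medians of 2.26, 9.93 and 1.47 CPM, and was called only at E4 in spinal cord.

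**Figure D3:**
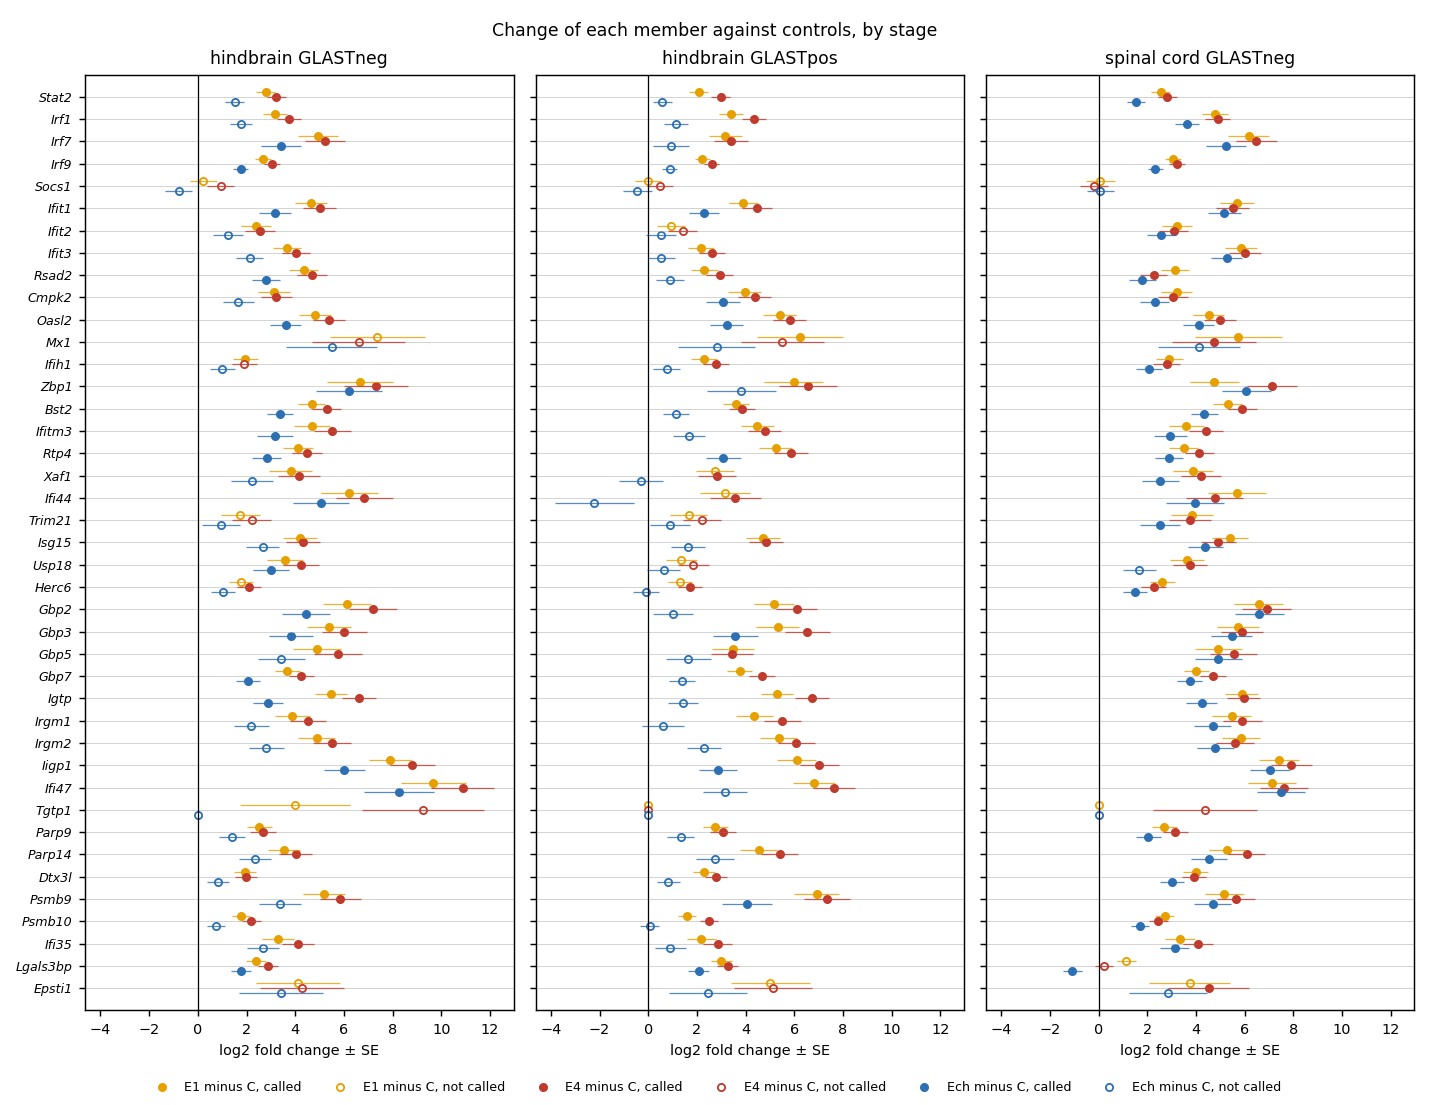
Log2 fold change against controls of each member (rows) at E1, E4 and Ech (colours) in each population (panels), with bars for the standard error. Filled points are called. The Ech points lie nearest 0 in hindbrain GLASTpos astrocytes and closest to E4 in spinal cord.

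How far the response lasted was asked at Ech. There 18 of 41 members were still called higher in hindbrain GLASTneg astrocytes (0.189% of all genes), 8 in hindbrain GLASTpos (1.21%) and 35 in spinal cord (5.16%). The median log2 fold change of the members was 2.68, 1.15 and 3.65, or 2.68, 1.14 and 3.12 with members at 0 in controls set to their bound. The 8 members still called in hindbrain GLASTpos astrocytes were Ifit1, Cmpk2, Oasl2, Rtp4, Gbp3, Iigp1, Psmb9 and Lgals3bp. The hindbrain GLASTneg count rests on single libraries. It was between 6 and 9 without any one of the 5 controls, 9 without Ech replicate 1 and 5 without Ech replicate 3, but 30 when that population was fitted alone. The hindbrain GLASTpos count was 4 without control replicate 1 or 2 or Ech replicate 1, and 5 without control replicate 4.

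In hindbrain GLASTpos astrocytes 29 members fell from E4 to Ech (0.913% of all genes), against 8 in hindbrain GLASTneg (0.0857%) and 5 in spinal cord (1.22%). Those of hindbrain GLASTneg astrocytes were Stat2, Irf1, Irf9, Gbp7, Igtp, Irgm2, Iigp1 and Ifi47, and those of spinal cord Stat2, Bst2, Usp18, Igtp and Lgals3bp. Counts in the GLASTneg populations depended on the fit. In hindbrain GLASTneg astrocytes the count was 34 when that population was fitted alone, 17 by DESeq2, 5 without E4 replicate 5 and 1 without any one of Ech replicates 2, 4, 5 and 6. In spinal cord it was 0 with a term for the sheet number, 13 without Ech replicate 1 and 8 without Ech replicate 4. Without any one of Ech replicates 2, 3, 5 and 6 or of E4 replicates 4 and 6 it was between 1 and 3. Ifi44 was down to 1 count over the 4 hindbrain GLASTpos Ech libraries. Apart from it, the largest falls were those of Igtp (-5.30 ± 0.72), Gbp2 (-5.09 ± 0.87) and Irgm1 (-4.89 ± 0.80) on the log2 scale, all in hindbrain GLASTpos astrocytes.

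Persistence was also expressed as the share of the rise in mean CPM from C to E4 that was left at Ech, for members called at E4. This share is a description without a test. Its median over members was 24.5% in hindbrain GLASTneg astrocytes (35 members, from 6.51% for Igtp to 45.7% for Zbp1), 9.345% in hindbrain GLASTpos (34 members, from -6.44% for Ifi44 to 37.6% for Cmpk2) and 49.7% in spinal cord (38 members, from 17.7% for Usp18 to 91.8% for Ifi47). At least 50% was left for 18 of 38 members in spinal cord and for 0 in either hindbrain population. The 18 include Mx1 (61.3%), whose spinal cord means were near the floor of 3 counts, at 1.087 CPM at E4 and 0.6663 at Ech. At Ech it had 17 counts in spinal cord replicate 1 and 0 in the other libraries. The count of 18 also depends on the scale. As a ratio of log2 fold changes the medians were 58.3%, 32.65% and 78%, and at least 50% was left for 26 of 35, 9 of 34 and 37 of 38 members.

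Medians by role are given as a description. In spinal cord the median was highest for guanylate-binding proteins (68.7%), followed by immunity-related GTPases (55.2%), antiviral genes (53.8%), the immunoproteasome (50.75%), the ISG15 system (47.8%), regulators (41.1%) and the ADP-ribosylation complex (39.2%). In hindbrain GLASTneg astrocytes the same GTPase groups were among the lowest, at 17.95% for guanylate-binding proteins and 14.2% for immunity-related GTPases, below antiviral genes (25.95%) and the ISG15 system (31.6%). In hindbrain GLASTpos astrocytes immunity-related GTPases kept 4.04%, the ISG15 system 3.02% and antiviral genes 12.45%. These orders depend on the scale. Taken as ratios of log2 fold changes, the hindbrain GLASTneg medians were 60.75% for guanylate-binding proteins, 50.8% for immunity-related GTPases and 61.5% for antiviral genes. Immunity-related GTPases thus stayed below antiviral genes there, while guanylate-binding proteins came close to them. In hindbrain GLASTpos astrocytes immunity-related GTPases (37.8%) were above antiviral genes (32.7%). In spinal cord guanylate-binding proteins (90.6%) stayed highest, but the ISG15 system (65.9%) was below regulators (73.5%) and the ADP-ribosylation complex (74.7%).

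**Figure D4:**
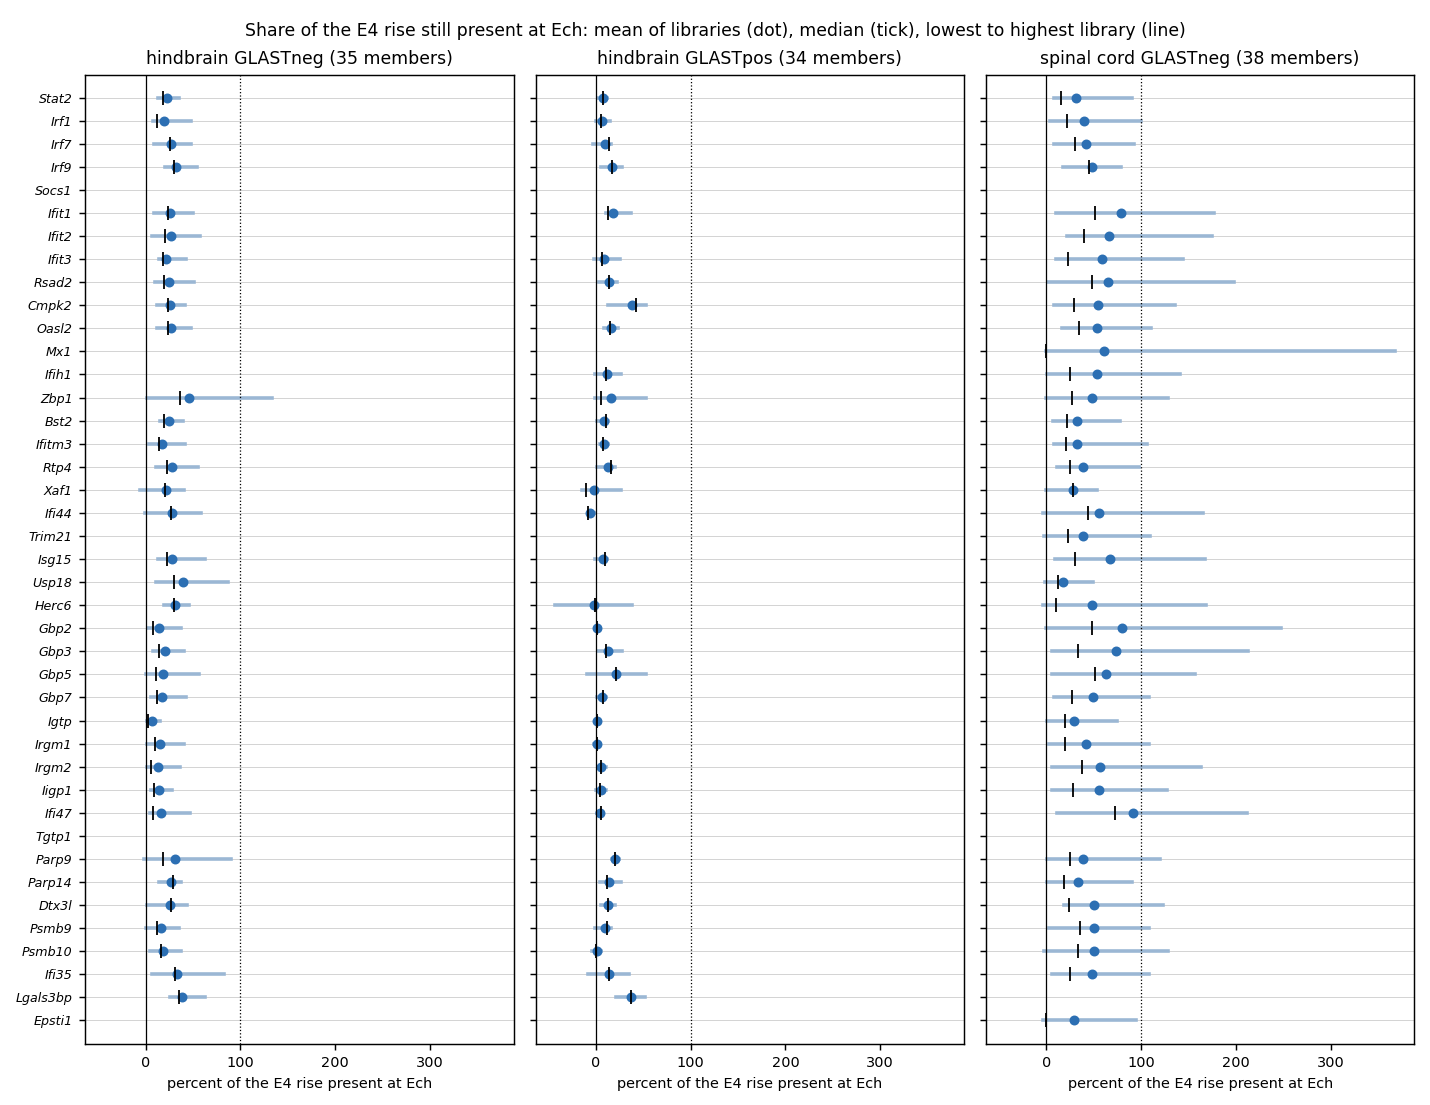
Percent of the E4 rise still present at Ech for each member called at E4 (rows), by population (panels). Dots are from group means, ticks are medians over Ech libraries and lines run from the lowest to the highest library. Dots centre near 24.5%, 9.345% and 49.7%, and spinal cord lines are the widest.

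Spinal cord means hide libraries that disagree. The median share over members in single Ech libraries was 111.41%, 30.18%, 6.46%, 88.39%, 18.68% and 19.88% in replicates 1 to 6. Replicates 1 and 4 were thus near the level of E4 and the other 4 were not. Without replicate 1 the median over members was 35.54%, and without replicate 4 it was 39.27%, with 31 and 34 members called at Ech. Taking the median over libraries for each member first gave 26.75% in spinal cord, 19.6% in hindbrain GLASTneg and 10.1% in hindbrain GLASTpos astrocytes. Hindbrain GLASTneg libraries stood at 34.71%, 14.49%, 42.15%, 12.82%, 12.87% and 14.57%, and hindbrain GLASTpos libraries at 11.15%, 2.86%, 11.75% and 6.31%. Spinal cord replicate 3 was below the median of every hindbrain GLASTneg library.

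Whether the responses differed between populations was tested as an interaction in the same fit. The shift of astrocyte markers in spinal cord enters these comparisons, and its part in them was not tested. At E4 few members differed. Between spinal cord and hindbrain GLASTneg astrocytes 1 member had a larger response in spinal cord (1.92% of all genes), Dtx3l, at 1.95 ± 0.64 on the log2 scale (edgeR adjusted p = 0.0422). Smaller responses (6% of all genes) were those of Rsad2, at -2.42 ± 0.75, and Lgals3bp, at -2.64 ± 0.55. Against hindbrain GLASTpos astrocytes the spinal cord response was larger for 3 members (3.79% of all genes), namely Irf7 (3.08 ± 1.05), Ifit3 (3.40 ± 0.76) and Bst2 (2.07 ± 0.69), and smaller for Lgals3bp (-3.04 ± 0.55, where 8.49% of all genes were smaller). These shares of members are near those of all genes, and the larger responses at E4 changed with the fit. With a term for sheet numbers over 56, 0 and 1 were called, and limma voom with a block for the number shared by library names called 0 in both.

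At Ech more members differed from hindbrain GLASTpos astrocytes. The spinal cord response was larger for 14 of 41 members (3.99% of all genes), namely Irf1, Irf7, Irf9, Ifit1, Ifit3, Bst2, Ifi44, Gbp2, Gbp7, Igtp, Irgm1, Iigp1, Dtx3l and Psmb10. The difference in Ifi44 rests on 1 count at Ech in hindbrain GLASTpos astrocytes. The spinal cord response was smaller for Lgals3bp alone (8.63% of all genes). Ifit3 differed by 4.72 ± 0.83 (edgeR adjusted p = 1.53e-05), Gbp2 by 5.58 ± 1.36 (0.00232), Iigp1 by 4.18 ± 1.12 (0.00673) and Psmb10 by 1.65 ± 0.54 (0.0314). The count was 8 without spinal cord Ech replicate 1, 5 among libraries with sheet numbers over 56 and 0 by limma voom with a block for the number shared by library names. Against hindbrain GLASTneg astrocytes 2 members had a larger spinal cord response at Ech (1.54% of all genes), Ifit3 (3.14 ± 0.79) and Dtx3l (2.19 ± 0.65), and Lgals3bp a smaller one (-2.85 ± 0.55, against 5.26% of all genes), and limma voom called 0 larger. All comparisons of a population share its controls.

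By edgeR the hindbrain populations did not differ in a call. In this test 0 members had a larger or smaller response in GLASTpos than in GLASTneg astrocytes at E4 or at Ech, where 0% and 0.0557% of all genes were larger and 0.00857% and 0.00429% smaller. DESeq2 called 0 larger and 0 smaller at E4, and 0 larger and 1 smaller at Ech. That member was Ifi44, which rests on 1 count in hindbrain GLASTpos Ech libraries. At an unadjusted p under 0.05 edgeR gave a smaller response for 3 members at E4 and for 10 at Ech (7.32% and 24.4% of members), beside 4.14% and 4.54% of all genes, and a larger one for 0, beside 4.82% and 6.69%. Bst2, for example, differed by -2.23 ± 0.73 at Ech on the log2 scale, whereas Irf1, at -0.61 ± 0.67, was within its standard error of 0.

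The fall from E4 to Ech was compared between populations after the data had been seen. By edgeR it was larger in hindbrain GLASTpos than in spinal cord astrocytes for 7 members (0.909% of all genes). All 7 were guanylate-binding proteins or immunity-related GTPases. They were Gbp2 (-4.79 ± 1.00), Gbp7 (-2.32 ± 0.64), Igtp (-3.56 ± 0.79), Irgm1 (-3.66 ± 0.92), Irgm2 (-2.99 ± 0.88), Iigp1 (-3.31 ± 0.87) and Ifi47 (-4.34 ± 0.89). The edgeR adjusted p ran from 0.00301 for Ifi47 to 0.0494 for Irgm2. DESeq2 called 9 members, these 7 with Ifi44 and Psmb10, which belong to other roles, so the restriction to GTPases depends on the fit. No call was made between the other pairs of populations, where 0.39% (hindbrain GLASTneg larger than spinal cord) and 0.0343% (hindbrain GLASTpos larger than GLASTneg) of all genes were called. For these pairs 10 and 5 members had an unadjusted p under 0.05 in that direction (24.4% and 12.2% of members), beside 7.01% and 5.85% of all genes, and DESeq2 called 0. The count of 7 was 4 without any one of hindbrain GLASTpos E4 replicates 3 and 4, its Ech replicates 2 and 4 and spinal cord Ech replicates 1 and 4, 0 among libraries with sheet numbers over 56, where spinal cord E4 has 1 library, and 0 by limma voom with the block for library-name numbers.

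Levels without disease differed for few members. In controls 0 members differed between spinal cord and hindbrain GLASTneg astrocytes by edgeR (4.2% of all genes) or DESeq2. At an unadjusted p under 0.05, 2 differed (4.88% of members), beside 19.1% of all genes. Against hindbrain GLASTpos controls 4 differed (13.8% of all genes). Rtp4 and Lgals3bp were higher in spinal cord, by 2.56 ± 0.72 and 1.29 ± 0.41, and Socs1 and Ifit3 lower, at -1.58 ± 0.58 and -3.60 ± 0.62. Between hindbrain controls 3 differed (10.5% of all genes, whose median was -0.11). Ifit3 was higher in GLASTpos astrocytes, by 2.02 ± 0.56, and Rtp4 and Lgals3bp were lower, at -2.18 ± 0.75 and -1.62 ± 0.41. These shares are below those of all genes. Ifit3 controls were lowest in spinal cord, where its response was largest.

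RNA of immune cells was present in some libraries and is set beside the members here. The sort removes CD45-positive and CD11B-positive cells. Of 11 T cell markers, 2, 1 and 0 were called higher at E1, E4 and Ech in hindbrain GLASTneg astrocytes, 6, 8 and 3 in hindbrain GLASTpos and 2, 7 and 3 in spinal cord. Of 19 myeloid markers, 2, 5 and 1, then 6, 7 and 3, and 9, 16 and 7 were. Of all genes, 0.635%, 0.707% and 0.189% were called higher at these stages in hindbrain GLASTneg astrocytes. The shares were 1.27%, 1.66% and 1.21% in hindbrain GLASTpos and 2.5%, 6.8% and 5.16% in spinal cord. The T cell markers summed to at most 17.7, 9.79 and 11.4 CPM in controls of the 3 populations. At E4 their sums were between 30.7 and 203 CPM in hindbrain GLASTneg astrocytes, between 51.1 and 1075 in hindbrain GLASTpos and between 23.1 and 91.8 in spinal cord. The sums were 2.26, 8.19 and 11.4 CPM in hindbrain GLASTpos E1 replicates 1, 3 and 6, whose members summed to 857, 1263 and 1603 CPM. In replicates 2, 4 and 5 the T cell sums were 350.5, 1058 and 179 CPM and the member sums 4997, 6069 and 7309 CPM. The E1 libraries with more T cell RNA were thus also those with more interferon-stimulated RNA. At E4 this order did not hold in the same population, since replicate 1 had the highest T cell sum (1075 CPM) with a member sum of 2313 CPM, while replicates 3 and 4 had 109 and 79.1 CPM with 10065 and 11328 CPM. At Ech the 4 libraries had T cell sums between 12.8 and 188 CPM beside member sums between 540.1 and 965 CPM.

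In spinal cord at Ech T cell sums were 48.7, 25.4, 4.86, 2.27, 10.5 and 9.59 CPM in replicates 1 to 6 beside member sums of 6542, 2045, 654, 5492, 1374 and 1377 CPM. Replicate 4, near the level of E4, had the lowest T cell sum. Spinal cord E4 replicate 2 held 7792 CPM of the 19 myeloid markers against between 205 and 465 in the other 5, with a member sum of 5930 CPM. Without it 36 members were called at E4. In hindbrain GLASTneg astrocytes the 2 Ech libraries with the highest member sums, replicates 1 and 3 (2565 and 2948 CPM), had T cell sums of 43.1 and 95.7 CPM. The defining T cell genes Cd3d, Cd3e and Cd3g were at 0 in all hindbrain GLASTpos and spinal cord controls. The part of such RNA in the levels of the members was not tested.

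**Figure D5:**
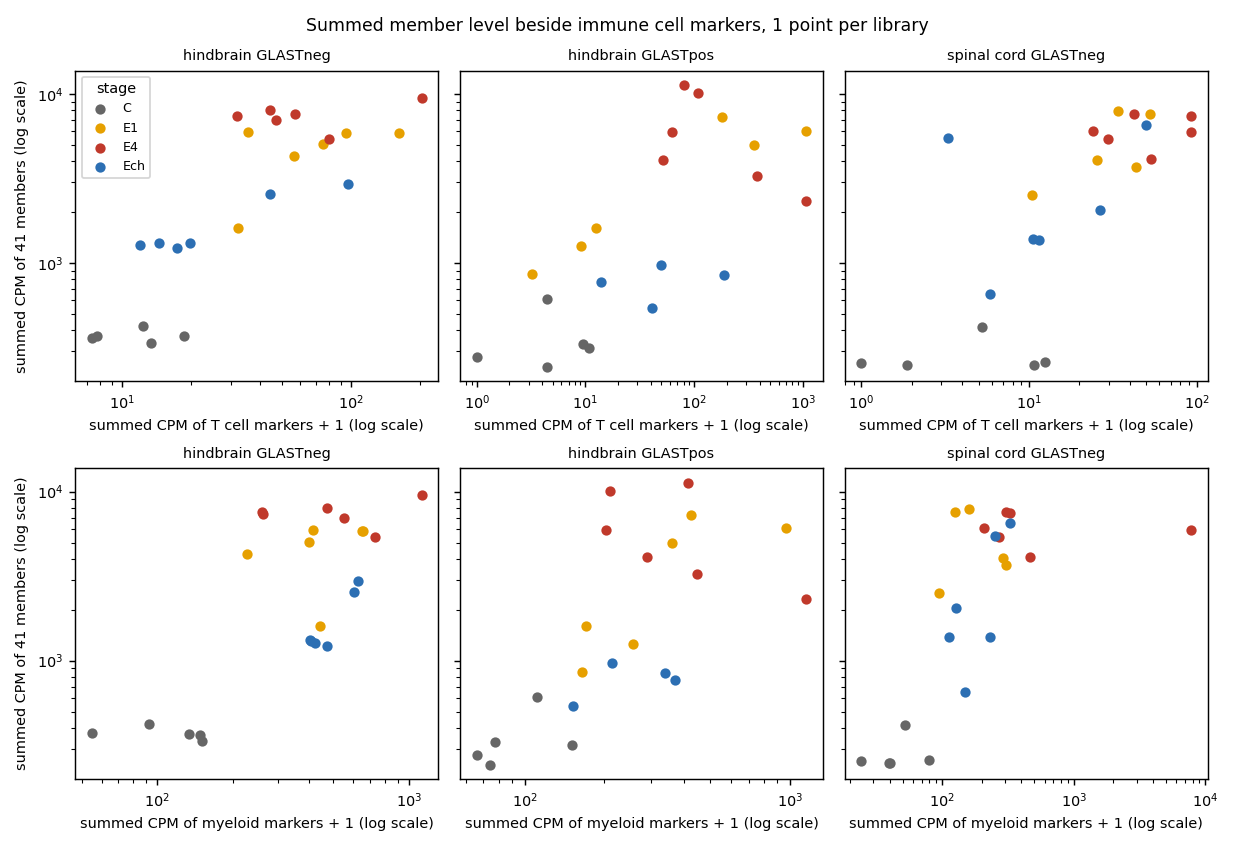
Summed level of the 41 members (CPM, log axis) against the summed level of T cell and of myeloid markers (CPM, log axes) in each library, by population and coloured by stage. Hindbrain GLASTpos E1 libraries with 350.5, 1058 and 179 CPM of T cell markers have higher member sums than the other 3, whereas spinal cord Ech replicate 4 combines 2.27 CPM of T cell markers with 5492 CPM of members.

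Other genes of the pathway were followed beside the members. Of 23 genes for interferons, receptors, kinases, factors and sensors, 21 were tested. At E4 3, 4 and 5 were called higher in hindbrain GLASTneg, hindbrain GLASTpos and spinal cord astrocytes (0.707%, 1.66% and 6.8% of all genes). At Ech 0, 1 and 5 were (0.189%, 1.21% and 5.16% of all genes). Socs3, an inhibitor of cytokine signalling, stayed called in spinal cord at Ech, at 6.27 ± 0.94, as did Irf8, a factor best known from myeloid cells, at 4.04 ± 0.83. Ddx58, the sensor RIG-I, rose at E4 in hindbrain GLASTpos and spinal cord astrocytes, at 2.59 ± 0.55 and 2.91 ± 0.55. Tlr3 and Irf3, of the pathway that senses double-stranded RNA, fell in spinal cord at E4, at -1.93 ± 0.27 and -1.27 ± 0.31. In that comparison 11.1% of all genes were called lower. The interferon receptors Ifnar1, Ifngr1 and Ifngr2 measured -0.53 ± 0.38, -0.18 ± 0.30 and 0.64 ± 0.76 at E4 in spinal cord.

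A second list of 32 interferon-induced genes outside the members followed the same stages. Called higher were 9, 11 and 2 of them at E1, E4 and Ech in hindbrain GLASTneg astrocytes (0.635%, 0.707% and 0.189% of all genes). In hindbrain GLASTpos astrocytes 11, 14 and 2 were (1.27%, 1.66% and 1.21% of all genes). In spinal cord 14, 22 and 13 were (2.5%, 6.8% and 5.16% of all genes). From E4 to Ech 0, 9 and 1 fell in the same order (0.0857%, 0.913% and 1.22% of all genes). This list was drawn up with results of these data known and is no independent evidence.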

How the data were processed

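RNA was measured as 3′-end QuantSeq FWD libraries, read as single ends of 50 bases. The authors aligned reads to GRCm38 with HISAT 0.1.5 and SAMtools and deposited a count per Ensembl gene from HTSeq 0.6.1p1 in union mode. The strand setting is not given in the sources used here. The deposited tables hold raw counts, and 3 counts are given as the floor of a library. Intervals and floors cover counting error only.

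Genes with at least 10 counts in total over the 66 EAE libraries were tested (23324 of 48526). edgeR 4.0.16 (R 4.3.3) fitted 1 quasi-likelihood model with a mean for each population and stage after TMM scaling, and p-values were adjusted by Benjamini-Hochberg over all genes. A call needed an adjusted p under 0.05 and a log2 fold change past 1 in size. Standard errors were taken from the fold change and its F statistic. The fit was tested on simulated data. The labels do not say that all libraries of a group came from separate mice, so p-values measure the spread between these libraries.

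Members and lists were chosen with earlier results of these data known. All members were counted by role, and single-library values are given for the 2 members of each role with the most counts, and other members are named where they stand at the ends of their role. Members named for a difference or a single count, among them Ifi44, Ifi47, Zbp1, Gbp2 and Rsad2, were singled out after their values were seen. Member coordinates and overlaps came from GENCODE vM21 (GRCm38) and promoters from RefSeq. Alternatives were DESeq2 1.42.0, its size factors, other filters, a replicate block, sheet-number terms and subsets, single-population fits, limma 3.58.1 voom with a block, adjusted p alone and each library left out. The subtype libraries were used only as a range, since their labels and the study's own sample list differ. Values of 1 gene of the pathway list are not reported here.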

Additional observations from a re-analysis of the deposited data

Results flagged for a closer look

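Single libraries that stood far from the other members of their group were looked for in 204 sets of values, each of 1 measure in 1 group of 4 to 6 libraries. In all 21 were found. For normally spread values the rule flags about 1 in 20 sets by chance. These sets share libraries, so the number found cannot be judged against that rate. Values are in CPM. Among controls they were Bst2 in hindbrain GLASTneg replicate 2 (19.32), Irf9 and Ifit3 in hindbrain GLASTpos replicate 5 (59.39 and 151.4) and Lgals3bp in spinal cord replicate 5 (88.91).

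Hindbrain GLASTneg E1 replicate 2 was the lowest of its group for all 16 genes given by library, and stood far below the others for 8 of them and for the mean of log2(CPM + 1) over the members (4.449). The 8 genes were Irf1 (96.87), Irf9 (98.5), Bst2 (195.4), Ifit3 (62.68), Gbp7 (64.31), Psmb10 (61.05), Lgals3bp (154.7) and Ifi35 (17.09). Hindbrain GLASTneg E4 replicate 2 was low for Gbp7 (168.5), Iigp1 (396.1) and Psmb10 (134.4), and E4 replicate 1 was high for Lgals3bp (659.9). Hindbrain GLASTneg Ech replicate 3 was high for Ifit3 (119.1). Hindbrain GLASTpos Ech replicate 2 was low for Bst2 (28.14), Isg15 (3.586) and Psmb9 (0).

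Differences of the response between populations were tested as interactions with edgeR. At E4 the spinal cord response was larger than that of hindbrain GLASTneg astrocytes for 1 member and smaller for 2, and at Ech larger for 2 and smaller for 1. Against hindbrain GLASTpos astrocytes it was larger for 3 and smaller for 1 at E4, and larger for 14 and smaller for 1 at Ech. The fall from E4 to Ech was larger in hindbrain GLASTpos than in spinal cord astrocytes for 7 members. In the libraries of astrocyte subtypes, which enter no comparison, 2 members (Psmb10 and Lgals3bp) were above 3 counts in all 15 libraries of isolated cells.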

How the results depend on the processing

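Counts at E1 and E4 moved by less than 1.5 times when a library was left out. With each library left out in turn, 31 to 37 members were called at E1 and 33 to 35 at E4 in hindbrain GLASTneg astrocytes, 27 to 33 and 30 to 34 in hindbrain GLASTpos and 36 to 38 and 36 to 38 in spinal cord. DESeq2 called 37, 37 and 26 members at E1, E4 and Ech in hindbrain GLASTneg, 35, 38 and 12 in hindbrain GLASTpos and 38, 38 and 36 in spinal cord. Other values depended on the setting, and the causes were not tested unless the setting itself has fewer libraries. At Ech leaving out a library gave 5 to 18, 4 to 9 and 31 to 36 members. From E4 to Ech it gave 1 to 12, 20 to 29 and 1 to 13 members lower, and from E1 to E4 in spinal cord 0 to 1 higher, as the report names by library.

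Fitting hindbrain GLASTneg libraries alone gave 30 members higher at Ech and 34 lower from E4 to Ech. Only libraries with sheet numbers over 56, with 1 spinal cord E4 library, gave 25 members higher in spinal cord at E4, 0 from E1 to E4, 0 lower from E4 to Ech, larger spinal cord responses than in hindbrain GLASTpos astrocytes for 0 at E4 and 5 at Ech, and a larger hindbrain GLASTpos fall for 0. The change of Lgals3bp from E4 to Ech in spinal cord turned to 0.31 on the log2 scale there. The share of all genes called in that subset is not given, so its counts cannot be set against it. A term for these numbers gave 0 members from E1 to E4 and 0 lower from E4 to Ech in spinal cord, larger spinal cord responses at E4 for 0 (against hindbrain GLASTneg) and 1 (against hindbrain GLASTpos), and 1 difference between hindbrain controls, but 13 larger responses at Ech and a larger fall for 6. The DESeq2 Wald test gave 17 members lower from E4 to Ech in hindbrain GLASTneg astrocytes and 7 differences between spinal cord and hindbrain GLASTpos controls. With no filter on low counts 21 and 9 members were lower from E4 to Ech in hindbrain GLASTneg and spinal cord astrocytes, larger spinal cord responses than in hindbrain GLASTneg numbered 2 at E4 and 4 at Ech, hindbrain controls differed in 6, and larger falls than in spinal cord numbered 11 in hindbrain GLASTpos and 1 in hindbrain GLASTneg.

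limma voom with a block by the number in library names (correlation 0.0384) called 0 larger spinal cord responses at E4 and 0 at Ech against either hindbrain population, 1 difference between spinal cord and hindbrain GLASTpos controls, 0 between hindbrain controls and 0 larger falls. The ratio of log2 fold changes in place of mean CPM gave a median share left at Ech of 58.3% in hindbrain GLASTneg, 32.65% in hindbrain GLASTpos and 78% in spinal cord astrocytes. With single libraries left out, larger spinal cord responses than in hindbrain GLASTneg numbered 0 to 2 at E4 and 1 to 4 at Ech, and than in hindbrain GLASTpos 1 to 4 at E4 (1 without hindbrain GLASTpos control 5 or E4 replicate 2, or spinal cord control 4) and 8 to 17 at Ech. Spinal cord and hindbrain GLASTpos controls differed in 1 to 6 (1 without spinal cord control 5, 2 without hindbrain GLASTpos control 2), hindbrain controls in 2 to 4, and the larger hindbrain GLASTpos fall held for 4 to 10. The median share left at Ech ranged over 19.87% to 26.43%, 7.796% to 11.9% and 35.54% to 57.76%.

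The replicate numbers of the titles do not pair the libraries. Deviations from group means correlated at -0.00716 between libraries of one population with the same number and at 0.00157 with other numbers, and at 0.0263 against -0.00517 between populations. The fit with a replicate block called 37, 36 and 24 members at E1, E4 and Ech in hindbrain GLASTneg astrocytes, 33, 36 and 11 in hindbrain GLASTpos and 37, 38 and 35 in spinal cord, 12, 31 and 6 lower from E4 to Ech, 16 larger spinal cord responses than in hindbrain GLASTpos at Ech and 7 larger falls. DESeq2 size factors and adjusted p alone moved no count by over 1.5 times. At this depth 3 counts are between 0.634 and 2.44 CPM, so changes of members near that level could not be measured.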

Other observations

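A separate experiment held 15 libraries of isolated astrocytes and 3 of cultured astrocytes without EAE, and 39 of the 41 members were listed in its count table. The median over members of the median level was 3.168 CPM in isolated and 14.09 CPM in cultured cells. Members did not all go this way. Medians in isolated and cultured cells were 23.99 and 20.15 CPM for Rsad2 and 87.36 and 76.94 CPM for Lgals3bp. Ifitm3, which blocks entry of enveloped viruses, was between 1.104 and 48.58 CPM in isolated and between 309.6 and 619.6 CPM in cultured cells. Isolated cells came from FVB/N mice and cultured cells were grown from the cerebrum of newborn C57BL/6J mice, so strain, age, region and culture cannot be told apart, and no test was run.

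Library names carry a number that recurs across populations and that the labels do not explain. For hindbrain GLASTneg and hindbrain GLASTpos libraries of one stage with the same number, 11 of 14 pairs lay on the same side of their group means in the mean level of the members. The same held for 8 of 13 pairs of hindbrain GLASTneg and spinal cord libraries and for 6 of 13 pairs of hindbrain GLASTpos and spinal cord libraries.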
